A study of Mus musculus with 4 samples.

Results

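The genes described here are the nucleoporins, importins and exportins of Beko cells, a mouse leukemic pre-T cell line with constitutive Notch activity. The rule that picks them reads only the gene symbol and takes every symbol of the count table that begins with Nup and a number, Ipo and a number, Kpna and a digit, Xpo and a digit or t, Tnpo1 to Tnpo3, or that is Kpnb1. This gave 45 of the 24391 genes in the table, of which 43 had enough counts to be tested. RNA-Seq was compared between 2 libraries of cells kept in the γ-secretase inhibitor DAPT (GSI) for 48 h and 2 libraries of cells that had the same 48 h of inhibitor followed by its removal and 24 h of further culture (washout). GSI blocks the release of the Notch intracellular domain, so that the washout asks what changes when the pathway is allowed to become active again. All 4 libraries come from the same unmodified line and all were exposed to GSI. The labels give the dose as 10 mg/ml and the methods as 10 μg/ml. Cells washed and cultured alike without a change in Notch activity were not analysed here, so release from GSI and the extra wash with 24 h of culture cannot be told apart. The labels do not say whether the replicates were separate cultures, and p-values therefore measure the spread between these libraries, which may be technical.

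The nuclear pore complex is the channel through which proteins and RNA pass the nuclear envelope. It is built from nucleoporins that form a scaffold of stacked rings (the Y complex and the inner ring), a membrane anchor, a central channel filled with repeats of phenylalanine and glycine, filaments on the cytoplasmic side and a basket on the nuclear side. Importins carry cargo inward and exportins carry it outward, and both are steered by the small GTPase Ran, which is loaded with GTP in the nucleus and hydrolyzes it in the cytoplasm. In the classical route, an importin alpha (Kpna genes) recognizes the nuclear localization signal of the cargo and importin beta (Kpnb1) takes the pair through the pore.

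Total counts ranged from 13716199 to 36364200 per library, with the deeper library being replicate 1 in both conditions. Against the label of a pre-T line, all 10 markers of T-cell progenitors were tested, and Rag1 had 1763 and 2367 CPM (counts scaled to library size) in GSI and 2765 and 2554 upon washout. Of these 10 markers, 3 were upregulated and 2 downregulated, with log2 fold changes from -1.90 for Cd5 to 2.37 for Ptcra. These shares are near the 27.0% and 25.4% of all genes tested. B-cell markers summed to at most 0.959 CPM in any library, and Pax5, Ms4a1, Lyz2, Hba-a1 and Hbb-b1 were listed at 0. Myeloid markers summed to 49.1 and 38.2 CPM in GSI and to 5.49 and 4.91 upon washout, nearly all of it from Itgam, and erythroid markers summed to 23.8 and 21.4 CPM against 11.2 and 10.8. The part of these markers in the results below was not tested. As a check of the labels, the Notch target Hey1 had 16.2 and 18.1 CPM in GSI and 180 and 200 upon washout, and Dtx1 had 46.1 and 64.3 against 409 and 605. For Hes1 the GSI libraries were at 21.8 and 7.67 CPM and the washout libraries at 43.6 and 37.9, and Notch1 had 505 and 636 against 1184 and 1332.

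Upon washout, the transport genes took up a larger part of the transcriptome. Together they held 0.547% and 0.591% of all counts in the GSI libraries and 0.904% and 0.854% in the washout libraries, so that the conditions did not overlap. In CPM, scaled with the normalization factor of each library, the sum rose 1.77-fold. In bulk RNA, a change in RNA per cell and a change in the make-up of the cells cannot be told apart, and all values are relative to the other genes.

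The conditions were tested against each other with the quasi-likelihood method of edgeR, and p-values were adjusted (Benjamini-Hochberg) over all 12266 genes tested. At an adjusted p-value under 0.05, 37 of the 43 tested transport genes (86.0%) were upregulated, against a background of 27.0% of all genes tested. None was downregulated, against 25.4% of all genes, and none was lower at an unadjusted p under 0.05 either. With DESeq2, 36 were upregulated and 0 downregulated, against 23.8% and 19.4% of the 13172 genes in that fit. Past both criteria of the study (adjusted p under 0.05 and a log2 fold change above 1), 15 were upregulated (34.9%), against 7.74% of all genes, and 0 were below -1, against 11.7%. The median log2 fold change of the 43 genes was 0.73, whereas it was -0.01 over all genes. A log2 fold change above 0 was found for 40 of the 43 genes, against 49.5% of all genes. For 38 genes, or 88.4% of those tested, both washout libraries lay above both GSI libraries, which was the case for 38.2% of all genes. The scaling matters for the number past both criteria: with the total count alone, the median of all genes shifted by -0.20, the calls over all genes went from 3315 higher and 3120 lower to 2316 higher and 4248 lower, and 31 transport genes were upregulated, 7 of them past both criteria.

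**Figure D1:**
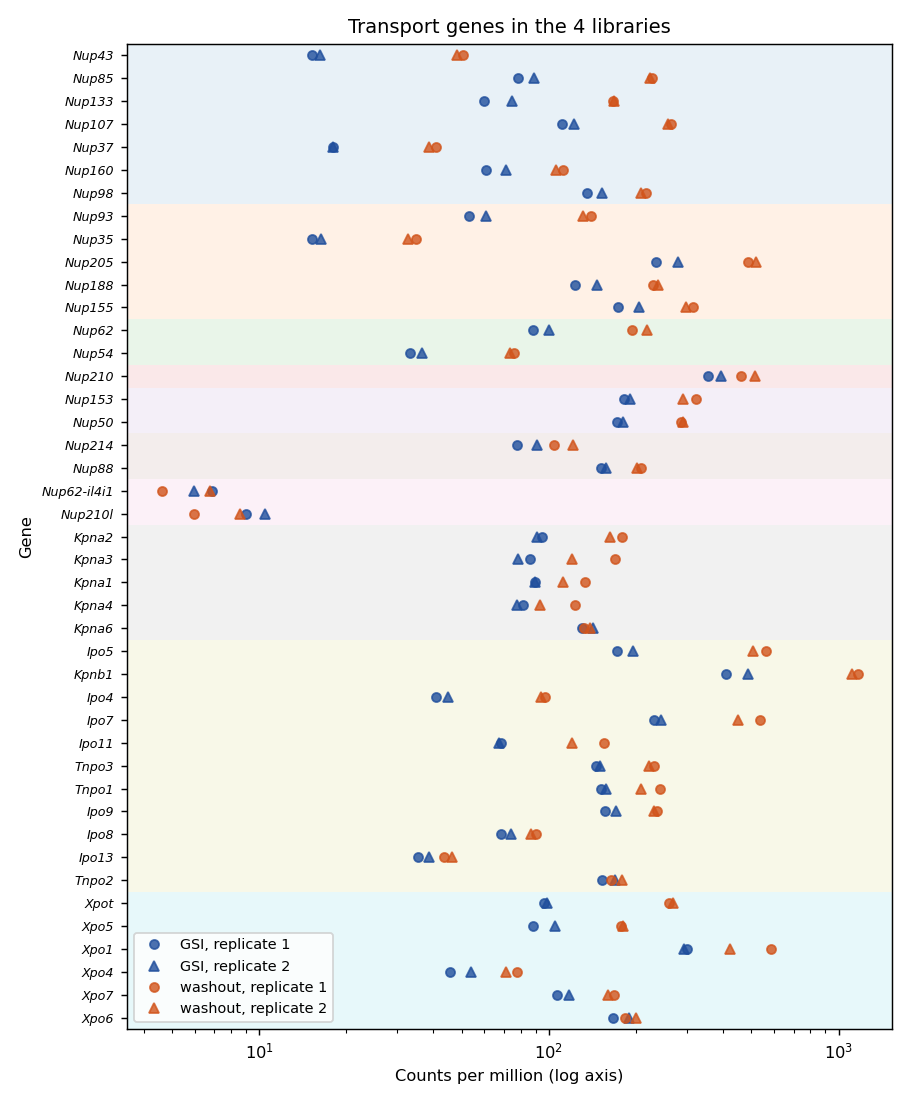
CPM (log axis) of the 43 tested transport genes, with 1 point per library and the GSI libraries in blue and the washout libraries in orange. Circles are replicate 1, triangles are replicate 2, and background colors mark the structural groups. For 38 genes both orange points lie to the right of both blue points.

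The Y complex is the main scaffold of the outer rings of the pore. Its genes that match the rule had the highest median of all structural groups. All 7 of these genes were upregulated, with a median log2 fold change of 1.16, and 5 were past both criteria. The Y complex subunits Sec13 (log2 fold change 0.79), Seh1l (0.88) and Ahctf1 (0.76) do not match the rule. They were upregulated with values under that median, so the ranking does not hold for the whole complex. Nup43, a small propeller-shaped subunit, had 15.2 and 16.2 CPM in GSI and 50.4 and 48.0 upon washout. This was the largest rise of all transport genes, 1.65 on the log2 scale (standard error, SE, 0.110, adjusted p = 0.000334 in edgeR), which places Nup43 at the 98.4th percentile of all genes tested. Nup85 had 78.2 and 89.0 CPM against 227 and 223, a log2 fold change of 1.43 (SE 0.105, adjusted p = 0.000347 in edgeR). Replicates of both genes lay close together compared with the distance between conditions. Nup133 (1.32), Nup107 (1.16) and Nup37 (1.15) followed on the log2 scale, and Nup160 reached 0.73. The smallest rise was that of Nup98, whose precursor protein is cut into the mobile nucleoporin Nup98 and the Y complex subunit Nup96. Its libraries had 136 and 153 CPM in GSI and 216 and 209 upon washout (log2 fold change 0.56, SE 0.102, adjusted p = 0.00519 in edgeR), and without GSI replicate 1 its adjusted p was 0.0522. In mm9, Nup43 lies on chromosome 10 from 7387301 to 7398679, Nup85 on chromosome 11 from 115425748 to 115445299 and Nup98 on chromosome 7 from 109268968 to 109358634.

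The inner ring lines the pore at the level of the membrane and holds the channel nucleoporins in place. All 5 of its genes were upregulated, with a median log2 fold change of 0.97. The linker nucleoporin Nup93 had 53.2 and 60.7 CPM in GSI and 140 and 131 upon washout, a log2 fold change of 1.25 (SE 0.106, adjusted p = 0.000455 in edgeR). Nup35 had 15.2 and 16.3 CPM against 34.8 and 32.6, with a log2 fold change of 1.10 (SE 0.119). Of the large scaffold proteins, Nup205 (0.97) and Nup188 (0.80) were upregulated but stayed under a log2 fold change of 1. Nup155 was lowest, with 173 and 205 CPM in GSI and 315 and 298 upon washout (log2 fold change 0.70, SE 0.117). In no gene of the inner ring did the libraries of the 2 conditions overlap.

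The central channel is represented by Nup62 and Nup54, which form the transport barrier of the pore together with Nup58. Nup62 had 88.5 and 100.2 CPM in GSI and 194 and 218 upon washout, and Nup54 had 33.2 and 36.4 against 75.8 and 73.6. Their log2 fold changes, 1.13 (SE 0.114, adjusted p = 0.000694 in edgeR) and 1.10 (SE 0.0995, adjusted p = 0.000534), were closer to each other than their standard errors. Under total-count scaling both fell below 1, to 0.93 for Nup62 and 0.91 for Nup54. Nup58, listed as Nupl1, does not match the rule. Nupl1 was upregulated with a smaller log2 fold change of 0.66 (SE 0.0947, adjusted p = 0.00214 in edgeR). The exons of Nup62 overlap those of Il4i1 on the same strand and of Atf5 on the other strand, and the strand setting of the counting is not given in the sources used here, so the value of Nup62 is less certain. Exons of Ipo4, Nup35, Nup188 and Xpo4 overlap another gene on the same strand and those of Kpnb1, Nup88, Nup214, Tnpo2 and Tnpo3 one on the other strand, and the same limit holds for them.

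Genes of the peripheral parts of the pore that match the rule were also upregulated, with log2 fold changes under 1. This does not hold for every pore gene outside the rule. Of 15 such genes, 13 were upregulated, but the membrane nucleoporin Ndc1 reached 1.32 and Nupl2 did not pass (0.10). In the nuclear basket, Nup153 had 181 and 191 CPM in GSI and 323 and 291 upon washout (log2 fold change 0.72, SE 0.105), and Nup50, which helps to release imported cargo, had 172 and 180 against 287 and 291 (0.71, SE 0.0934). On the cytoplasmic side, Nup214 had 77.7 and 90.8 CPM in GSI and 104 and 121 upon washout, and its partner Nup88 had 152 and 157 against 209 and 202. Both pairs of conditions were separate, but the rises were small, at 0.42 for Nup214 (SE 0.124, adjusted p = 0.0307 in edgeR) and 0.41 for Nup88 (SE 0.0910, adjusted p = 0.0109). The membrane nucleoporin Nup210, on chromosome 6 from 90963062 to 91066823, had 354 and 391 CPM in GSI and 462 and 515 upon washout (log2 fold change 0.39, SE 0.116, adjusted p = 0.0314 in edgeR). With the total count as the only scaling, Nup214 (0.22, adjusted p = 0.168 in edgeR), Nup88 (0.21, adjusted p = 0.0891) and Nup210 (0.19, adjusted p = 0.195) no longer passed the test. Without GSI replicate 1, which left 1 GSI library, the adjusted p-values of these genes were 0.185, 0.0926 and 0.215.

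A further 3 genes resemble nucleoporins or read through from one, 2 of them were tested, and neither passed. Nup210l, a paralog of Nup210 best known from the testis, had 9.03 and 10.5 CPM in GSI and 5.96 and 8.63 upon washout, the only tested transport gene whose washout libraries both lay below the GSI libraries, which was the case for 39.1% of all genes. Its log2 fold change of -0.44 (SE 0.235, adjusted p = 0.165 in edgeR) did not pass the test. Nup62-il4i1, a readthrough transcript of Nup62 into Il4i1, had 6.90 and 5.96 CPM against 4.61 and 6.77 (log2 fold change -0.21, SE 0.257, adjusted p = 0.526 in edgeR), and its conditions overlapped. It shares exons with Nup62, so reads of the 2 genes may have been split or dropped. The paralog Nup62cl was listed at 0 counts in every library, as was the importin alpha gene Kpna7, which is known from the oocyte. A count of 0 allows up to 0.0881 to 0.223 CPM at the depth of these libraries, for counting error only.

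**Figure D2:**
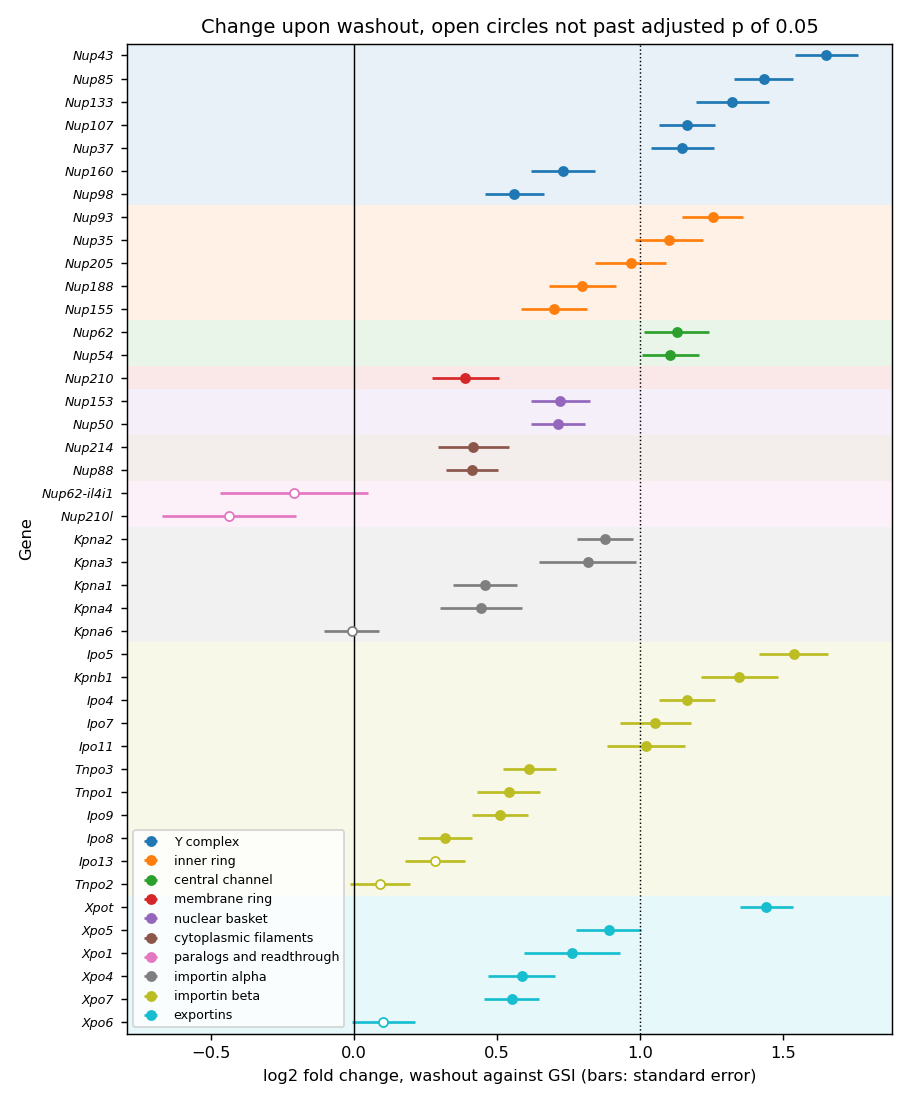
log2 fold change of washout against GSI for the 43 tested transport genes, with bars of 1 standard error from edgeR, ordered within structural groups. Filled circles passed an adjusted p of 0.05 and open circles did not, and the dotted line marks a log2 fold change of 1. The highest value is that of Nup43 at 1.65 and the lowest that of Nup210l at -0.44.

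Among the adaptors of the importin alpha family, 4 of the 5 tested genes were upregulated, with a median log2 fold change of 0.46, and 0 were past both criteria. Kpna2, the family member known to be abundant in dividing cells, had 94.4 and 91.2 CPM in GSI and 178 and 163 upon washout (log2 fold change 0.88, SE 0.0962, adjusted p = 0.000878 in edgeR). Kpna3 had 85.9 and 78.2 CPM against 169 and 120, a log2 fold change of 0.82 with a larger standard error of 0.169, since its washout libraries differed. Kpna1 (0.46) and Kpna4 (0.44, adjusted p = 0.0396 in edgeR) were upregulated. Neither passed with the total count alone (adjusted p = 0.0981 for Kpna1 and 0.196 for Kpna4 in edgeR) or without GSI replicate 1 (0.0777 and 0.106). By contrast, Kpna6 had 130 and 142 CPM in GSI and 132 and 138 upon washout. Its conditions overlapped, and the log2 fold change was -0.01 (SE 0.0954, adjusted p = 0.949 in edgeR).

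The importin beta family holds the carriers that pass the pore themselves. In this group, 9 of 11 genes were upregulated, 5 of them past both criteria, and the median log2 fold change was 0.61. Ipo5, which imports ribosomal proteins and histones among other cargo, had 172 and 195 CPM in GSI and 561 and 505 upon washout, a log2 fold change of 1.54 (SE 0.120, adjusted p = 0.000397 in edgeR). Kpnb1, the importin beta of the classical route, rose from 408 and 487 to 1164 and 1112 CPM (log2 fold change 1.35, SE 0.135, adjusted p = 0.000689 in edgeR). It had the most counts of all transport genes, 39635 in washout replicate 1. Ipo4 (1.16), Ipo7 (1.05) and Ipo11 (1.02) were also past both criteria, and these 3 fell under 1 with total-count scaling. Among the carriers of RNA-binding proteins, Tnpo3, an importer of SR proteins, rose by 0.61 and Tnpo1, the transportin of hnRNP A1, by 0.54. Ipo9 (0.51) and Ipo8 (0.32) were upregulated as well. Without GSI replicate 1, Tnpo1 (adjusted p = 0.0573 in edgeR), Ipo9 (0.0659) and Ipo8 (0.209) did not pass, and Ipo8 did not pass with the total count either (0.308). Ipo13 had 35.3 and 38.5 CPM against 43.5 and 46.3, which separated the conditions, although its log2 fold change of 0.28 (SE 0.105, adjusted p = 0.0622 in edgeR) did not pass. Tnpo2 had 153 and 169 CPM in GSI and 164 and 180 upon washout, with overlapping conditions and a log2 fold change of 0.09 (SE 0.104, adjusted p = 0.492 in edgeR). Ipo5 lies on chromosome 14 from 121310416 to 121347264 and Kpnb1 on chromosome 11 from 97021028 to 97049195 (mm9).

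Of the exportins that match the rule, 5 of 6 were upregulated and the median log2 fold change was 0.67. Xpot, the exporter of tRNA, stood out with 96.5 and 98.5 CPM in GSI and 260 and 269 upon washout, a log2 fold change of 1.44 (SE 0.0924, adjusted p = 0.000315 in edgeR). Of these 6 exportins, only Xpot was past both criteria. Cse1l, an exportin whose symbol does not match the rule, was past both as well (1.25). Xpo5, which carries precursors of microRNA, had 88.3 and 105.3 CPM against 178 and 181 (log2 fold change 0.89, SE 0.114). Xpo1 (CRM1), the general exporter of proteins with a leucine-rich signal, had 300.2 and 292 CPM in GSI and 584 and 420 upon washout. The washout libraries of Xpo1 lay further apart than the GSI libraries, and its log2 fold change of 0.76 had a standard error of 0.167 (adjusted p = 0.0105 in edgeR). Xpo4 (0.59) and Xpo7 (0.55) were upregulated, although Xpo4 did not pass without GSI replicate 1 (adjusted p = 0.0588 in edgeR). Xpo6, the exporter of actin, had 167 and 190 CPM against 183 and 200.3, overlapping conditions and a log2 fold change of 0.10 (SE 0.110, adjusted p = 0.465 in edgeR).

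A correction of each library for GC content and exon length bears on the genes at the lower end. It covered 41 of the tested transport genes, and 39 of these were then upregulated, against 29.4% of the 10962 genes in that fit. Xpo6 (0.31, adjusted p = 0.0218 in edgeR), Ipo13 (0.52, adjusted p = 0.00329) and Tnpo2 (0.24, adjusted p = 0.0323) passed the test with this correction, whereas Kpna6 (0.07, adjusted p = 0.438) and Nup210l did not.

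**Figure D3:**
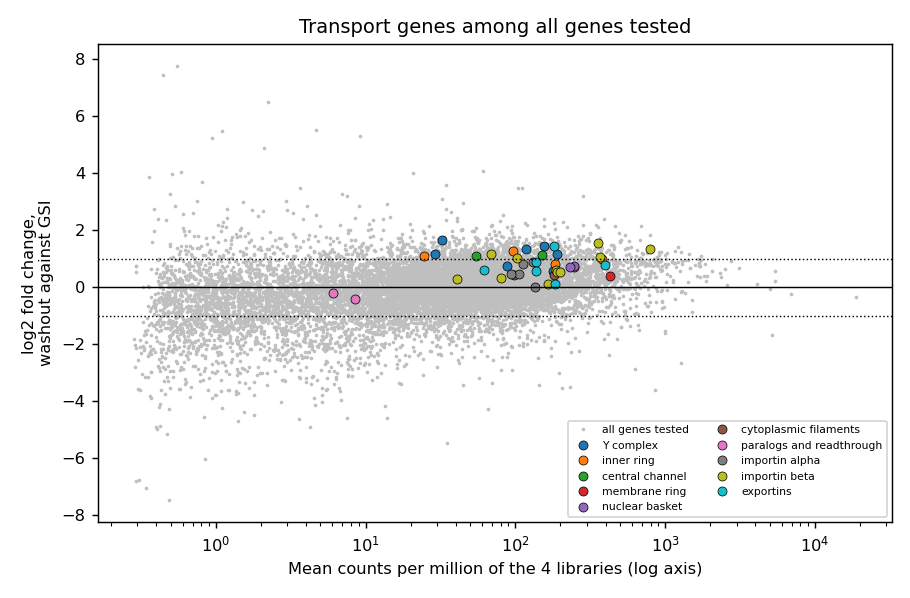
log2 fold change of washout against GSI (y axis) over the mean CPM of the 4 libraries (log axis) for all 12266 genes tested in gray and the transport genes in the colors of their groups. Dotted lines mark log2 fold changes of 1 and -1. Of the 43 transport genes, 40 lie above 0.

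The proportions of related transport genes were also compared between conditions. The ratio of 2 genes within a library does not depend on the scaling of that library. Pairs of related genes were chosen after their values were seen, and the ratios are a description. Reads of Ipo7 outnumbered those of its close relative Ipo8 by 3.37 and 3.30 in GSI and by 5.94 and 5.14 upon washout. The Tnpo1 to Tnpo2 ratio was 0.993 and 0.932 in GSI and 1.48 and 1.16 upon washout. Among the importin alpha genes, the ratio of Kpna2 to Kpna6 went from 0.725 and 0.642 to 1.35 and 1.17, that of Kpna1 to Kpna6 from 0.686 and 0.634 to 1.01 and 0.810, and that of the closely related Kpna3 and Kpna4 from 1.06 and 1.003 to 1.37 and 1.29. The ratios of the 2 conditions did not overlap in these 5 pairs, but single genes without overlap were common in these libraries, with 38.2% of all genes tested higher and 39.1% lower in both washout libraries. With 2 libraries per condition, the smallest two-sided p of an exact permutation test is 0.333, so no ratio can pass a threshold of 0.05 by that test.

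**Figure D4:**
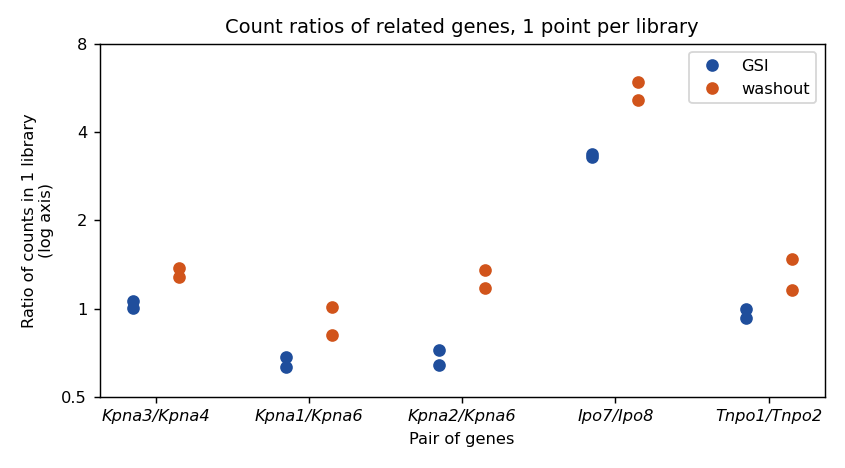
Ratio of the counts of 2 related genes within each library (log axis), with 1 point per library, GSI in blue and washout in orange. The ratio is higher in both washout libraries in each of the 5 pairs, and the largest ratio is that of Ipo7 to Ipo8.

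Levels were compared between genes as CPM per kilobase of annotated exon, for the 41 tested genes with an annotated length. The lengths come from GENCODE vM1 whereas the counts were made over another annotation, so these levels are approximate. In GSI, the mean level ranged from 1.72 for Nup210l to 76.2 for Ipo7, with a median of 19.8, and upon washout from 1.28 for Nup210l to 173 for Kpnb1, with a median of 30.01. Ipo7 had 74.0 and 78.4 CPM per kilobase in GSI, just above Kpnb1 with 61.9 and 74.0. The GENCODE vM1 gene of Ipo7 begins at 117161939, past the end of its RefSeq promoter at 117161878. Its exon length of 3117 bases may therefore be too short, and its level and rank too high. Upon washout Kpnb1 had 177 and 169 and Ipo7 had 172 and 144, and these ranges overlapped. Nup210 went from rank 3 to rank 9 of the 41 genes and Tnpo2 from rank 11 to rank 20, whereas Nup85 went from rank 16 to rank 8 and Xpot from rank 25 to rank 16. Within the Y complex, whose subunits are present in equal numbers in the assembled pore, mean RNA levels in GSI lay between 6.15 for Nup43 and 37.4 for Nup107. Upon washout the lowest of its 7 genes that match the rule was Nup160 at 12.5 and the highest Nup107 at 83.8.

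Transport genes with shorter exons had higher log2 fold changes. Across the 41 genes, the log2 fold change correlated with the log2 exon length at -0.54 (Pearson) and -0.60 (Spearman), compared with -0.09 and -0.12 across 10962 genes of the whole table. After correction of the libraries for GC content and length, the correlation among the transport genes was -0.37 (Pearson) and -0.45 (Spearman). Without that correction, the Pearson correlation with GC content was -0.08 and that with the mean level 0.18, and with it they were 0.20 and 0.28. Across the 10962 genes, without correction, they were -0.15 and 0.34, so genes with higher levels tended to have higher log2 fold changes. These are correlations across genes measured in the same 4 libraries, which are no independent replicates, and no p-value is attached. The exons of the transport genes had a median length of 5992 bases against 3567 for all genes with a length, and a median GC content of 46.1% against 50.3%. Their median level was also higher, at 150 CPM against 36.9. The shares of all genes given as background are not matched for level.

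The promoters of these genes were searched for 5 short motifs. RefSeq promoters (250 bases before to 50 bases after the gene start, table build GRCm38.p6) were found for 35 of the 45 genes and gave 42 sequences, each of which matched the mm9 genome exactly at 1 place. Both strands were searched, and a match is a description of the letters and not a binding site. The E-box CACGTG, the core letters of Myc, Max and related factors, was present in 7 of the 42 promoters (16.7%), in 7.15% of all 32851 promoters of the table and in 9.93% of the 11481 promoters of genes tested. TGGGAA, the core of the RBPJ motif, was present in 9 (21.4%), against 25.6% of all promoters. CCAAT was found in 23 (54.8%), the SP motif GGGCGG in 27 (64.3%) and the ETS motif CCGGAAG in 7 (16.7%), against 37.4%, 35.7% and 8.86% of all promoters. Among the promoters of genes tested, the shares were 22.9% for TGGGAA, 38.03% for CCAAT, 62.0% for GGGCGG and 18.3% for CCGGAAG, so that those of GGGCGG and CCGGAAG lay close to the shares of the transport genes. Of the 33 tested transport genes with a promoter, 7 held the E-box, 8 TGGGAA and 6 CCGGAAG. Their median log2 fold change was 1.10 with and 0.72 without the E-box, and 1.10 with and 0.71 without TGGGAA. It was 1.13 with and 0.73 without CCGGAAG, so a higher median was not particular to the E-box. For CCAAT it was 0.71 with and 0.89 without, and for GGGCGG 0.74 with and 1.02 without. Over all tested genes with a promoter, the median was -0.04 with and -0.01 without TGGGAA. There it was 0.09 with and -0.03 without the E-box, and 0.11 with and -0.07 without CCGGAAG. For CCAAT it was 0.003 with and -0.03 without, and for GGGCGG -0.01 with and -0.02 without.

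The promoters of the genes past both criteria that hold the E-box are shown with its letters in capitals, together with that of Tnpo2, which holds the motif at 2 places although the gene did not pass the test. Nup93 and Tnpo2 each have another promoter, not shown, without the motif. Nup188 (log2 fold change 0.80), upregulated but not past both criteria, also holds it at 2 places and is not shown. Sequences run 5′ to 3′ on the strand of the gene, with mm9 coordinates.
Xpot, chr10:121063339-121063638, minus strand: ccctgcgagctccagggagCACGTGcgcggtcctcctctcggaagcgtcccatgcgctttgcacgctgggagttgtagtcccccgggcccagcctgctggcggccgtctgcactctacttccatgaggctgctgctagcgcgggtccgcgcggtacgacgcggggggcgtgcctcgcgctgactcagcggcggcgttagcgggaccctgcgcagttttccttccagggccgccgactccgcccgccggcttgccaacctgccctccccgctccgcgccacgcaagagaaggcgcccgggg
Nup93, chr8:96738214-96738513, plus strand: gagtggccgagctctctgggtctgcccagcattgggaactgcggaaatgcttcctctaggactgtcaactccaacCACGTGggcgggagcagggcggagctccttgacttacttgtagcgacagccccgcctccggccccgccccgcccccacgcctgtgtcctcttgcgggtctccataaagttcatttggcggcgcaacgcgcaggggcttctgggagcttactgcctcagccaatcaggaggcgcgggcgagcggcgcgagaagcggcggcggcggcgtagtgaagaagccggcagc
Ipo4, chr14:56254472-56254771, minus strand: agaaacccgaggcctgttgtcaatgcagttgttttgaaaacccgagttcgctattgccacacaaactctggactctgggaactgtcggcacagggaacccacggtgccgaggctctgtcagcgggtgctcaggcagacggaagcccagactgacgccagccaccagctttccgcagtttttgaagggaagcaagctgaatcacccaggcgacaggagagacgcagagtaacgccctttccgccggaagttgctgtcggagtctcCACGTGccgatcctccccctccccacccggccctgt
Nup54, chr5:92864176-92864475, minus strand: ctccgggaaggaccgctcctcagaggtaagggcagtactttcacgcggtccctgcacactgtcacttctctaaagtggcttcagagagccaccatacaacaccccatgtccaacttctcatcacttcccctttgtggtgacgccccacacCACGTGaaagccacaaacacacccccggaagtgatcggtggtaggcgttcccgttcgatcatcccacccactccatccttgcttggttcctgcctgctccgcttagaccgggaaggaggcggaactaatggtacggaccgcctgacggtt
Ipo7, chr7:117161579-117161878, plus strand: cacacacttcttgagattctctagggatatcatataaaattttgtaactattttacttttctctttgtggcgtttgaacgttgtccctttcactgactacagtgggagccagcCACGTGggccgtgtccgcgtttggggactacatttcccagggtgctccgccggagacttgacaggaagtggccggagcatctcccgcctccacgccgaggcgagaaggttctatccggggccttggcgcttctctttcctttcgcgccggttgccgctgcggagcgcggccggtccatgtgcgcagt
Tnpo2, chr8:87560542-87560841, plus strand: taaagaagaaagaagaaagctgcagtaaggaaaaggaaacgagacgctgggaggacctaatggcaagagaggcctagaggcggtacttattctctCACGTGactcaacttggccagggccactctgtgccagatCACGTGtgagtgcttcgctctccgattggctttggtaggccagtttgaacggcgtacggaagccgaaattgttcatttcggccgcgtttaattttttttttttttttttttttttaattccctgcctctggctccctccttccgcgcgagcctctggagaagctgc
The E-box begins 231 bases before the gene start in Xpot, 175 before it in Nup93, 100 before it in Nup54 and 137 before it in Ipo7, and 14 bases after it in Ipo4. In Tnpo2 it begins 155 and 116 bases before the start.

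Lists of further genes of the pathway, whose symbols do not match, were tested in the same fit. The highest and lowest genes of each list are given. Tpr, Ranbp2, Ran, Ranbp1, Cse1l and Rangap1 were added for their roles after their values were seen. So were Sec13, Seh1l and Ahctf1, which are given above with the Y complex, and Nupl1, given above with the central channel. Of 15 further pore proteins, 13 were upregulated and 0 downregulated, against 27.0% and 25.4% of all genes tested, with a median log2 fold change of 0.66. The membrane nucleoporin Ndc1 was highest, with 32.3 and 34.1 CPM in GSI and 85.3 and 80.3 upon washout (log2 fold change 1.32, SE 0.0967, adjusted p = 0.000347 in edgeR), and was the gene of this list past both criteria. The basket protein Tpr (0.73) and the filament protein Ranbp2 (0.47), which carries the SUMO ligase activity of the pore, were upregulated. At the lower end, Nupl2 had 15.7 and 12.3 CPM against 15.8 and 14.3 (log2 fold change 0.10, SE 0.171).

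In the Ran system and its carriers, 10 of 11 genes were upregulated, 7 of them past both criteria, and the median log2 fold change was 1.07. Of all genes tested, 27.0% were upregulated, and 7.74% were upregulated past both criteria. Rcc1, the nuclear exchange factor that loads Ran with GTP, had 63.0 and 76.0 CPM in GSI and 223 and 237 upon washout, a log2 fold change of 1.73 (SE 0.122, adjusted p = 0.000343 in edgeR). Ran itself went from 273 and 299 to 863 and 871 CPM (log2 fold change 1.60), and Ranbp1, which assists GTP hydrolysis in the cytoplasm, from 119 and 141 to 414 and 417 (1.68). Cse1l, the exportin that returns importin alpha to the cytoplasm, reached 1.25, and the GTPase-activating protein Rangap1 reached 0.70. Snupn, the import adaptor of spliceosomal snRNPs, had 20.3 and 20.3 CPM in GSI and 19.6 and 18.8 upon washout and did not pass the test (log2 fold change -0.08, SE 0.120).

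Of 16 mRNA export genes, 12 were upregulated and 0 downregulated, against 27.0% and 25.4% of all genes tested. Past both criteria were 6, against 7.74% of all genes, and the median log2 fold change was 0.59. The highest was the helicase gene Ddx39, with 108 and 124 CPM against 266 and 281 (log2 fold change 1.24, SE 0.110), and the lowest Ddx19b at -0.05 (SE 0.0896, adjusted p = 0.681 in edgeR). Of 13 lamina and envelope genes, 4 were upregulated and 4 downregulated, shares near the 27.0% and 25.4% of all genes tested, and the median was -0.12. Banf1, which binds DNA to the envelope, rose from 92.1 and 103 to 217 and 241 CPM (log2 fold change 1.23), whereas the A-type lamin gene Lmna fell from 15.4 and 15.4 to 4.73 and 4.17 CPM (log2 fold change -1.78, SE 0.172, adjusted p = 0.000625 in edgeR).

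**Figure D5:**
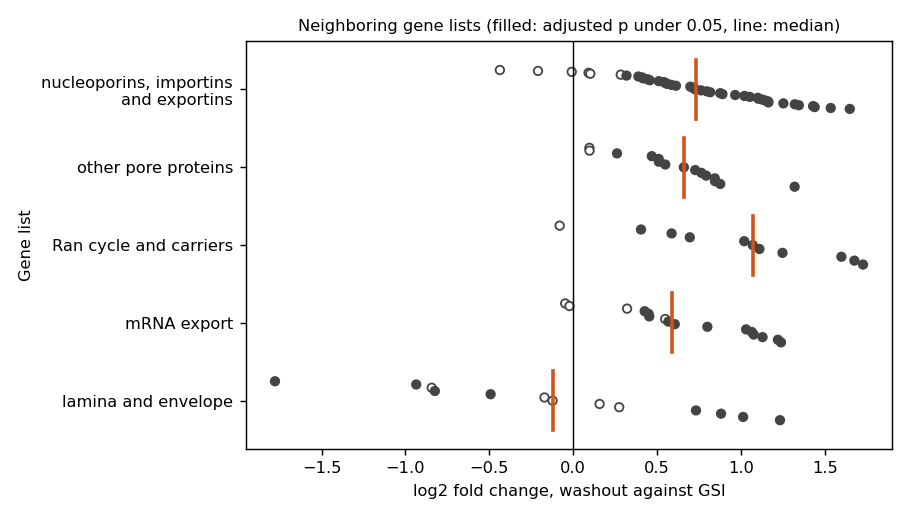
log2 fold change of washout against GSI for the transport genes and for 4 gene lists of the nuclear envelope and its traffic, with 1 circle per gene, filled where the adjusted p was under 0.05, and the median as a vertical line. Medians are 0.73 for nucleoporins, importins and exportins, 0.66 for other pore proteins, 1.07 for the Ran cycle, 0.59 for mRNA export and -0.12 for the lamina and envelope.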

How the data were processed

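RNA-Seq counts of 4 libraries were analyzed. According to the methods and the submitters' processing notes, reads were trimmed by the authors and mapped to mm9 by HISAT2 2.2.1 with 1 alignment kept for each. Genes of the iGenomes annotation were then counted with summarizeOverlaps. The deposited table holds these raw counts, neither normalized nor pooled. Strand setting and overlap mode are not given in the sources used here.

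Groups were taken from the treatment labels. The fit used edgeR 4.0.16 under R 4.3.3 (filterByExpr, TMM factors, estimateDisp, quasi-likelihood test without covariates, Benjamini-Hochberg adjustment over all genes). Dividing the log2 fold change by the root of the F statistic gave its standard error. The common biological coefficient of variation was 0.121. Replicates differed by more than sampling noise (chi-square over its degrees of freedom was 14.0 in GSI and 22.9 in washout). CPM use the library total times the TMM factor, and 3 counts set the limit of detection. GENCODE vM1 on mm9 gave the position, exon length and GC content of the 43 members that matched.

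The members, gene lists, groups and motifs were chosen with earlier results of these data known. In each structural group, the 2 highest and the lowest members are given by library, and so are members that overlapped or were not tested. DESeq2 1.42.0, other scalings and filters, thinning to the smallest library, a correction for GC content and length by splines, the replicate number as a block, and leaving out each library were the alternatives. The edgeR script was tested on simulated data. It recovered 55 of 100 genes changed by 0.75 on the log2 scale and 86 of 100 changed by 1.5. Beside these 55 and 86 there were 18 false calls, among 12167 genes tested, so smaller changes were often missed in the simulation. Far fewer genes were changed there than were called in the data, with 3315 higher and 3120 lower. The adjustment of p-values depends on that number, so the recovered shares may differ in the data.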

Additional observations from a re-analysis of the deposited data

How the results depend on the processing

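Of the 13 alternatives, Ipo11 and Nup62-il4i1, which have no exon length, entered 11. All 37 upregulated transport genes kept a log2 fold change above 0 in each alternative they entered, and 27 passed the test in each. The other 10, Nup214, Nup88, Nup210, Nup98, Kpna1, Kpna4, Ipo8, Ipo9, Tnpo1 and Xpo4, were lost without GSI replicate 1, where 27 were upregulated and the share of all genes upregulated was 18.2% in place of 27.0%. Nup43, Nup85, Nup133, Nup93, Ipo5, Kpnb1 and Xpot were above 1 on the log2 scale under every alternative. With the total count as the only scaling, 7 genes were past both criteria in place of 15, and the median of the transport genes was 0.53. Leaving out 1 library at a time gave medians from 0.67 to 0.79, 27 to 35 upregulated genes and 14 to 17 past both criteria. In these fits the lone library is assumed to vary like the other condition. Values that changed sign were near 0: Xpo6 (-0.096) and Tnpo2 (-0.11) with the total count, and Kpna6 with DESeq2 (0.0083), without a filter on low counts (0.028), and with the GC content and length correction (0.072, or 0.073 together with the replicate block). With 1 library left out, Kpna6 ranged from -0.075 to 0.066 and Nup62-il4i1 from -0.47 to 0.071. The cause of these shifts was not tested. The replicate numbers are only numbers in the labels, although replicate 1 deviations correlated at 0.53 between conditions. With the replicate block, 38 transport genes were upregulated and 1 was downregulated, Nup210l (log2 fold change -0.46, adjusted p = 0.0153 in edgeR), and 1 was downregulated also with the block and the GC content and length correction together. Over all genes, the block took the calls from 3315 higher and 3120 lower to 4243 higher and 4216 lower. Depth limits Nup210l and Nup62-il4i1, the tested members with the fewest counts, down to 87 in 1 library.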
